A study of Mus musculus with 8 samples.

Results

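Toll-like receptor genes encode sensors of microbial and self-derived molecules, and the question here was where DC-SCRIPT, the zinc finger protein encoded by Zfp366, was bound around them in conventional dendritic cells of the mouse spleen. The set comprised 10 genes, Tlr1, Tlr2, Tlr3, Tlr4, Tlr6, Tlr7, Tlr9, Tlr11, Tlr12 and Tlr13, of 21900 protein-coding genes. A binding peak counted for one of them when its centre lay inside the gene or, if it lay in no protein-coding gene, when that gene was the nearest. By this rule 31 of 31473 peaks in cDC1 and 3 of 2776 peaks in cDC2 belonged to the set.

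Binding was profiled by CUT&Tag, in which an antibody directs a transposase to a chromatin protein so that the DNA beside it is cut, tagged and sequenced. The groups were knockout (zfp366-/-) cDC1 with 2 libraries, wild-type (zfp366+/+) cDC1 with 3, knockout cDC2 with 2 and wild-type cDC2 with 1. The labels give each library as a mouse pool of female C57BL/6 animals, whose spleens were digested with collagenase and DNase, and they name no age and no treatment of the mice. cDC1 are known for presenting antigen from dying cells to CD8 T cells, and cDC2 for priming CD4 T cells. Each deposited peak list compared 1 set of wild-type tags with 1 set of knockout tags of the same subset, so no value per mouse pool and no spread between pools was used. The knockout set held 12.1 M tags and the wild-type set 35.5 M tags in cDC1. In cDC2 the knockout set held 6.83 M tags and the wild-type set 4.77 M tags. All 6 cDC1 marker genes and 5 of 6 cDC2 marker genes on the marker lists had a cDC1 peak, as did 1 of 4 B cell genes, 2 of 4 T cell genes and 2 of 4 neutrophil and macrophage genes, against 51.3% of all protein-coding genes. In the cDC2 list these counts were 3 of 6, 5 of 6, 0 of 4, 0 of 4 and 1 of 4, against 9.53% of all genes, a share at which a count of 0 of 4 sets no list apart. Binding is no measure of expression, so these counts do not test the purity of the sorted cells.

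Toll-like receptors recognise their ligands with leucine-rich repeats and signal through a cytoplasmic TIR domain, which recruits the adaptors MyD88 or TRIF and leads to NF-kB and interferon regulatory factors. In the mouse, Tlr1, Tlr2, Tlr4 and Tlr6 act mainly at the cell surface, whereas Tlr3, Tlr7, Tlr9, Tlr11, Tlr12 and Tlr13 act in endosomes. Tlr3, Tlr11 and Tlr12 are known for their activity in cDC1, where Tlr3 senses double-stranded RNA and the Tlr11 and Tlr12 pair senses the profilin of Toxoplasma gondii.

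Signal is in normalised tags, that is, tags in a peak of 191 bp after scaling the tag set to 10000000. The deposited fold runs wild type over knockout, so a fold above 1 means lower signal in knockout cells. Intervals of 95% were computed on tag numbers and reflect counting error alone. The authors kept a peak only where its fold over knockout was at least 4, so a listed difference between the genotypes is a property of the list and the test behind it is the authors' own. In knockout cells, 3 tags correspond to 2.47 normalised tags for cDC1 and to 4.4 for cDC2. Where the knockout value was the lowest one listed, 0.5 tag, the fold is given against 3 knockout tags instead. This is a convention and not a limit of a counting interval. Repeated tags were counted as separate, so the intervals may be too narrow. Coordinates refer to mouse build GRCm38.

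Of the promoter windows given by RefSeq for build GRCm38.p6, which run from 250 bases before a start site to 50 bases after it, 10 windows of 8 of these genes were matched, and none for Tlr4 and Tlr7. The peaks next to the start sites of Tlr11 and Tlr9 lay whole before the start site, and their sequences are shown because these are the genes whose start site lay within 1 kb of a peak centre in both subsets. Capitals mark matches to the motif letters searched on both strands, which were GAGGAAGT for PU.1, GAAA followed by NN and GAAA for the interferon-stimulated response element (ISRE), TGANTCA for AP-1, and GGGA followed by NTTN and CC for NF-kB, with N for any base. The motifs do not overlap each other in these sequences. Both sequences are given on the plus strand, along which both genes are transcribed, 5′ to 3′.
Tlr11, chr14:50357668-50357858: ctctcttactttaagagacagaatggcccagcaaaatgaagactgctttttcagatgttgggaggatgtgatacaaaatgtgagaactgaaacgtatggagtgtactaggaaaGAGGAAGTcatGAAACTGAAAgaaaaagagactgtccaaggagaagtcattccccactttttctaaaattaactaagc
Tlr9, chr9:106222399-106222589: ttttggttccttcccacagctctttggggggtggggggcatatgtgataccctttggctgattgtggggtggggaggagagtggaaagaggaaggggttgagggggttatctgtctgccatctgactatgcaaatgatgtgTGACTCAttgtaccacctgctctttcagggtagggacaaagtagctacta

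In the Tlr11 peak, GAGGAAGT began 133 bases and GAAACTGAAA began 122 bases before the start site, and both also lay inside the cDC2 peak at this gene. In the Tlr9 peak, TGACTCA began 58 bases before the start site. The PU.1 letters were present in 3.2% of all 32851 promoter windows and in 5.14% of the 5313 windows that a cDC1 peak overlapped. The ISRE letters were present in 3.44% and 3.65%, the AP-1 letters in 7.81% and 4.8%, and the NF-kB letters in 1.2% and 1.26%. Among the 10 windows of Toll-like receptor genes, the PU.1 letters occurred in 3, those of Tlr1, Tlr9 and Tlr11, and at Tlr9 they began 10 bases after the start site, outside the peak. The ISRE letters occurred in the windows of Tlr6 and Tlr11, and the NF-kB letters in those of Tlr2 and Tlr3. No cDC1 peak overlapped the windows of Tlr1, Tlr3 and Tlr6, and at Tlr2 the NF-kB letters lay outside the peak. A match describes these letters and is not a test of binding by the named factors.

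In cDC1, 9 of the 10 genes had at least 1 peak, against 51.3% of all protein-coding genes, and Tlr7 was the exception. Tlr1 carried 6 peaks, Tlr2 and Tlr3 carried 5 each, Tlr6, Tlr11 and Tlr13 carried 3 each, and Tlr4, Tlr9 and Tlr12 carried 2 each. At least 6 peaks were found at 6.11% of all genes, at least 5 at 8.36% and at least 2 at 29.5%. The stretch of chromosome to which a gene was the nearest had a median of 59.6 kb for these genes and 55.2 kb for all genes. Genes that overlap, as Tlr6 and Fam114a1 do, were each given their joint stretch, which is wider than that over which either could collect peaks. With only peaks inside the gene or within 1 kb of it, 8 of 10 genes had a peak, against 43.4% of all genes. The 6 genes Tlr1, Tlr2, Tlr3, Tlr9, Tlr11 and Tlr12, of 8 with a promoter window, had a peak centred within 1 kb of a start site, against 31.8% of 17492 genes.

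**Figure D1:**
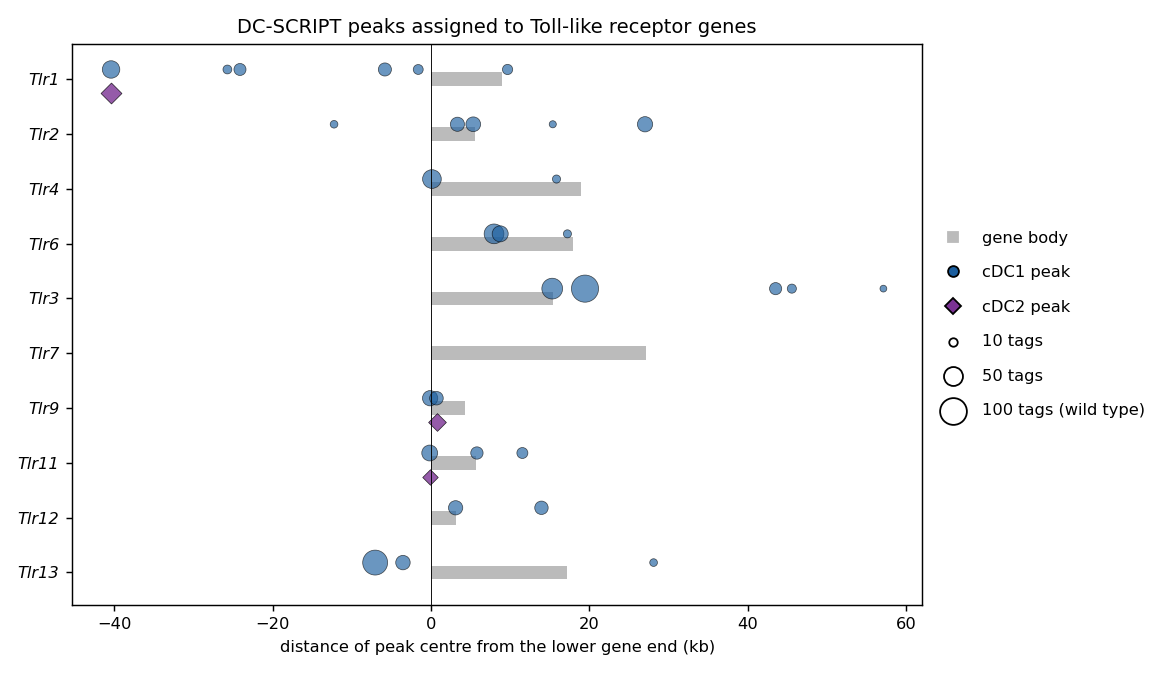
Positions of DC-SCRIPT peaks around the Toll-like receptor genes, as the distance of each peak centre from the lower gene end in kb, with gene bodies as grey bars, cDC1 peaks as circles and cDC2 peaks as diamonds, and marker area proportional to wild-type normalised tags. The largest circles are those of Tlr3 (102.8 tags) and Tlr13 (86.7 tags), both outside the gene, no marker is drawn at Tlr7, and diamonds are drawn at Tlr1, Tlr9 and Tlr11.

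Over the 31 cDC1 peaks, knockout signal ran between 0.412 and 6.59 normalised tags with a median of 1.65, and wild-type signal between 6.48 and 102.8 with a median of 25.2. Over all cDC1 peaks the medians were 1.65 in knockout and 15.5 in wild type. The median fold was 11.3 for these peaks and 10.2 for all peaks. Wild-type signal was above the median of all peaks at 21 of the 31. Knockout tags numbered at most 3 at 20 peaks, of which 5 had the lowest value listed. The peaks were centred inside the gene in 10 cases, or 32.3%, against 56.0% of all cDC1 peaks, and a further 11 lay outside but within 10 kb. The receptor genes were between 3.17 kb and 27.2 kb long, and the comparison did not account for gene length.

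The cell-surface receptors came with 16 cDC1 peaks at all 4 genes, 7 of them inside a gene. Their highest peak was at Tlr6, which pairs with Tlr2 to sense diacylated lipopeptides. It lay inside the gene at chr5:64960971-64961161, 1018 bases before the nearer start site, with 6.18 normalised tags in knockout and 54.3 in wild type, a fold of 8.77 (95% interval 4.08 to 19.3). A neighbouring peak at chr5:64961747-64961937 held 6.59 tags in knockout and 35.9 in wild type, a fold of 5.45 (95% interval 2.67 to 12.9). These peaks were among the 11 of 31 with more than 3 knockout tags. A weaker peak at chr5:64970242-64970432, with 1.24 tags in knockout and 9.16 in wild type, lay where Tlr6 and Fam114a1 overlap and counted for both genes.

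Tlr4, the receptor for lipopolysaccharide, had its peak of higher signal at the lower gene end. At chr4:66827585-66827775 the knockout value was the lowest listed, 0.412 normalised tags, against 48.8 in wild type, a fold of 19.7 against 3 knockout tags. This peak also stood 16.9-fold above its surrounding 10000 bp in wild-type cells. The other, inside the gene at chr4:66843312-66843502, held 0.824 tags in knockout and 9.30 in wild type. Tlr4 is the nearest gene to 1187.9 kb of chromosome, and both of its peaks lay inside the 19.0 kb of the gene.

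Tlr2, which senses bacterial lipopeptides, carried 2 peaks inside the gene and 3 outside. The peak at chr3:83841524-83841714 was centred 11 bases before a start site and held 4.12 normalised tags in knockout and 30.3 in wild type, a fold of 7.35 (95% interval 3.04 to 23.0). Further inside, at chr3:83839526-83839716, signal was 0.824 tags in knockout and 27.9 in wild type. The highest-scoring peak lay 21.5 kb above the gene at chr3:83863220-83863410, with 0.824 tags in knockout and 32.6 in wild type. These 3 peaks were close in wild-type signal, and the other peaks of the gene, at chr3:83823947-83824137 and chr3:83851563-83851753, were weaker, at 1.24 and 0.824 tags in knockout and 8.18 and 7.05 tags in wild type.

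Tlr1, the partner of Tlr2 for triacylated lipopeptides and the neighbour of Tlr6 on chromosome 5, had no peak inside the gene. Its highest peak lay 40.4 kb below the gene at chr5:64884193-64884383, with 1.65 normalised tags in knockout and 42.6 in wild type, a fold of 25.9 (95% interval 7.03 to 215.2). Next to the upper end, 803 bases before the nearer start site, the peak at chr5:64934266-64934456 held 2.06 tags in knockout and 14.7 in wild type, a fold of 7.11 (95% interval 2.34 to 75.4). The peaks at chr5:64918774-64918964 and chr5:64900472-64900662 held 1.65 and 3.71 tags in knockout and 24.0 and 20.3 in wild type. The remaining pair held 2.47 and 0.824 tags in knockout and 13.8 and 10.9 in wild type.

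The endosomal receptors came with 15 cDC1 peaks at 5 of 6 genes, 3 of them inside a gene. Tlr3 had the highest peak of the whole set, 4.05 kb above the gene and 4747 bases before its start site, at chr8:45415032-45415222. It held 1.65 normalised tags in knockout and 102.8 in wild type, a fold of 62.5 (95% interval 17.2 to 517.4), and ranked 110 of all 31473 cDC1 peaks by wild-type signal. With the wild-type tags limited to the peak's score, which counts repeated tags less, this fold was 28.8. The other strong Tlr3 peak, at the upper edge of the gene at chr8:45410892-45411082, held 2.88 tags in knockout and 60.2 in wild type, a fold of 20.9 (95% interval 7.04 to 67.8). Between 28.1 kb and 41.7 kb above the gene, 3 weaker peaks followed, with knockout signal between 0.412 and 3.30 tags and wild-type signal between 6.48 and 20.7.

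Tlr13, which senses bacterial ribosomal RNA in the mouse, had no peak inside the gene, and its nearest peak lay 3.53 kb below it. The peak farther out, 7.04 kb below the gene at chrX:106136136-106136326, was the highest of the gene, with 6.59 normalised tags in knockout and 86.7 in wild type, a fold of 13.1 (95% interval 6.58 to 30.7). It ranked 235 among all cDC1 peaks, and with wild-type tags limited to the score its fold was 5.99. The nearer peak at chrX:106139649-106139839 held 0.412 tags in knockout, the lowest value listed, and 29.2 in wild type, a fold of 11.8 against 3 knockout tags. Both lay before the start site. The remaining peak, 10.9 kb above the gene, was weak, with 0.412 tags in knockout and 8.32 in wild type.

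Tlr11 and Tlr12 each had a cDC1 peak at the start site. At Tlr11 the sequence printed above was centred 151 bases before the start site. It held 0.412 normalised tags in knockout and 35.2 in wild type, a fold of 14.2 against 3 knockout tags. A further Tlr11 peak at the other gene end, chr14:50363627-50363817, held 3.30 tags in knockout and 21.3 in wild type, and one 5.80 kb above the gene held 1.24 in knockout and 16.9 in wild type. At Tlr12 the peak at chr4:128618474-128618664, centred 50 bases after the start site, held 1.24 tags in knockout and 28.5 in wild type, a fold of 23.0 (95% interval 4.66 to 144.6). The higher-scoring Tlr12 peak, 10.8 kb above the gene at chr4:128629308-128629498, held 3.71 tags in knockout and 25.2 in wild type, a fold of 6.80 (95% interval 2.87 to 28.5).

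Tlr9, a sensor of unmethylated CpG DNA, had its cDC1 peaks on both sides of the start site. The peak before it, whose sequence is printed above, held 4.12 normalised tags in knockout and 32.7 in wild type, a fold of 7.96 (95% interval 3.30 to 24.9). The peak after it, 704 bases inside the gene at chr9:106223207-106223397, held 4.95 tags in knockout and 25.8 in wild type, a fold of 5.21 (95% interval 2.32 to 14.7). A stronger peak lay 3.48 kb above the gene, at chr9:106230265-106230455, where Alas1 is nearer, so that it did not count for Tlr9. Alas1 encodes the first enzyme of heme synthesis. This peak held 7.83 tags in knockout and 87.5 in wild type, a fold of 11.2 (95% interval 5.69 to 22.3).

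Tlr7, the receptor for single-stranded RNA, had no cDC1 peak inside its 27.2 kb or in the 54.6 kb of chromosome X nearest to it. The cDC1 peak closest to it lay 73.9 kb below, at chrX:167229431-167229621, and was assigned to Tlr8, the neighbouring gene. That peak held 2.88 normalised tags in knockout and 38.1 in wild type. The list holds regions that passed the authors' limits only, so signal at Tlr7 below those limits is not shown by it.

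**Figure D2:**
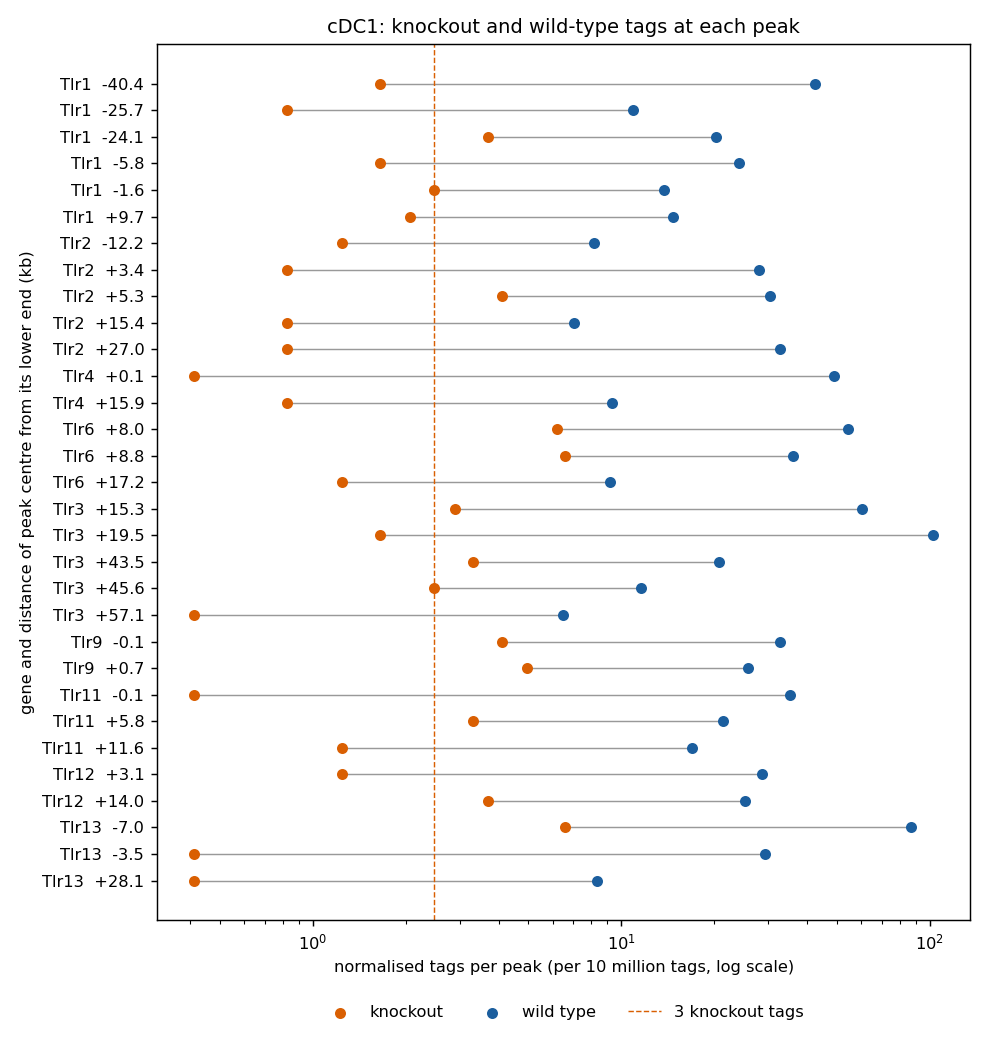
Knockout and wild-type normalised tags at each of the 31 cDC1 peaks of Toll-like receptor genes, on a log axis, with each row named by gene and by the distance of the peak centre from the lower gene end in kb. The dashed line marks 3 knockout tags (2.47 normalised tags), and 20 of the 31 knockout points lie on or left of it.

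In cDC2, 3 of the 10 genes had a peak, Tlr1, Tlr9 and Tlr11, with 1 peak each, against 9.53% of all protein-coding genes. With only peaks inside the gene or within 1 kb, the count was 2, against 6.14% of all genes. A start site within 1 kb of a peak centre was found at Tlr9 and Tlr11, 2 of 8 genes with a promoter window, against 2.44% of all genes with a window. Their wild-type signal, between 16.8 and 30.4 normalised tags with a median of 22.0, stood beside a median of 24.1 for all cDC2 peaks, and the median fold was 7.5 beside 7.42. With 1 wild-type library, this list has no replicate check.

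The cDC2 peaks of these genes rested on few tags. At Tlr1, 40.4 kb below the gene at chr5:64884158-64884348, signal was 5.13 normalised tags in knockout and 30.4 in wild type, a fold of 5.92 (95% interval 1.57 to 20.9). At Tlr9, 779 bases inside the gene at chr9:106223282-106223472, it was 2.93 tags in knockout and 22.0 in wild type, a fold of 7.5 (95% interval 1.52 to 67.1). At Tlr11, 68 bases before the start site at chr14:50357751-50357941, it was 1.47 tags in knockout and 16.8 in wild type, a fold of 11.4 (95% interval 1.53 to 507.4), from 1 knockout tag and 8 wild-type tags. The lower limits lay near 1.5 at each of these genes.

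All 3 cDC2 peaks overlapped a cDC1 peak of the same gene by at least 1 bp, against 63.7% of all cDC2 peaks, and 3 of the 31 cDC1 peaks were overlapped, against 5.61% of all cDC1 peaks. The overlap was 156 bp at Tlr1, 116 bp at Tlr9 and 108 bp at Tlr11. At Tlr1 wild-type signal was 30.4 normalised tags in cDC2 and 42.6 in cDC1. At Tlr9 it was 22.0 in cDC2 and 25.8 in cDC1, and at Tlr11 16.8 in cDC2 and 35.2 in cDC1. The counting intervals of the cDC2 and cDC1 wild-type signal overlapped at each gene, and the subsets differ in number of libraries and depth, so no difference between them was tested. The peak assigned to Alas1 near Tlr9 was also listed in cDC2, with 16.8 tags in knockout and 85.9 in wild type, a fold of 5.1 (95% interval 2.52 to 10.2). In cDC2, the peak nearest to Tlr6 lay 19.2 kb above it and was assigned to Fam114a1.

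**Figure D3:**
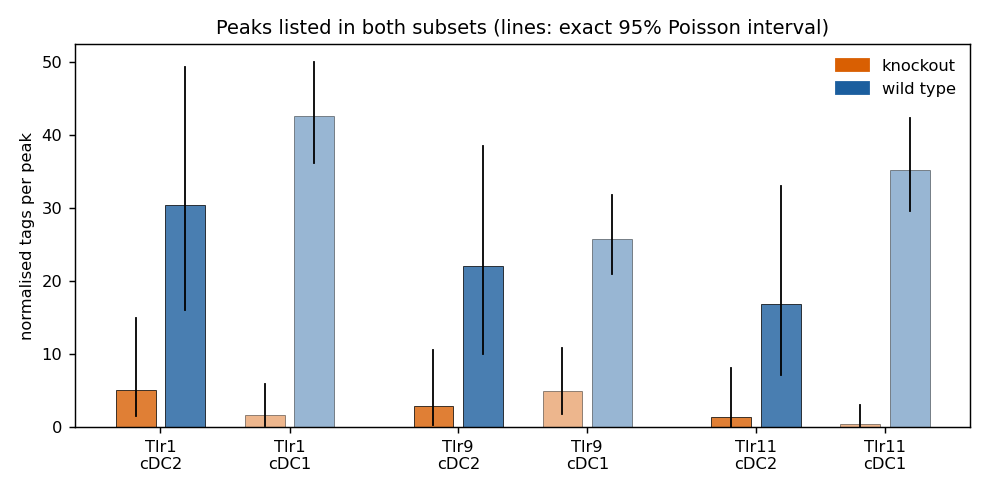
Knockout and wild-type normalised tags at the 3 peaks of Toll-like receptor genes listed in both subsets, with cDC2 in dark and cDC1 in pale bars and exact 95% Poisson intervals as lines. The cDC2 wild-type bars reach 30.4 at Tlr1, 22.0 at Tlr9 and 16.8 at Tlr11, with wide intervals that overlap those of the cDC1 wild-type bars.

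The cDC1 peaks with the highest signal were not the ones listed in cDC2. The highest Tlr3 peak would give 49.1 wild-type tags at the cDC2 depth, and the highest Tlr13 peak 41.4, if their signal were the same there, while the smallest wild-type count listed in cDC2 was 6 tags. Neither was listed. Of the 110 cDC1 peaks at least as high as that of Tlr3, 41 overlapped a cDC2 peak, or 37.3%, and of the 238 at least as high as that of Tlr13, 36.6% did. Most cDC1 peaks of such height were therefore absent from the cDC2 list at any gene. The highest peaks of Tlr6 and Tlr4 would give 25.9 and 23.3 tags and were also not listed, where 23.6% and 21.4% of cDC1 peaks as high were. Of the 31 peaks, 8 had wild-type signal below the lowest listed in cDC2, 12.6 normalised tags. The depth of cDC2 limits what can be said of these 8. For the higher peaks, the expected tags account for depth only. The deposited approximate share of tags in peaks was 6.47% in cDC1 and 0.79% in cDC2. Whether a peak missing from the cDC2 list reflects a difference between the subsets was not tested. The nearest listed cDC2 peak lay 1328.4 kb from Tlr3, 474.4 kb from Tlr13 and 3082.2 kb from Tlr4.

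**Figure D4:**
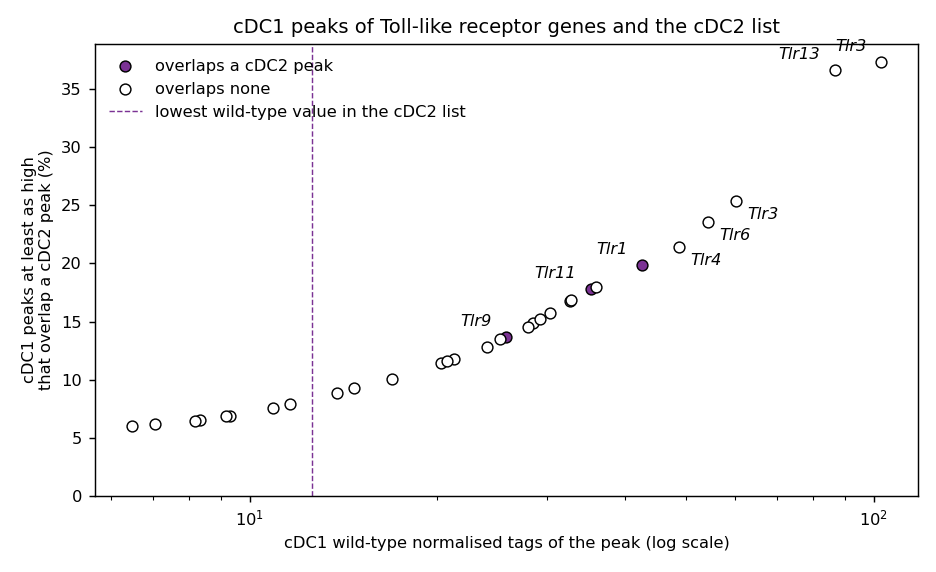
Each point is 1 of the 31 cDC1 peaks of Toll-like receptor genes, plotted by its cDC1 wild-type normalised tags (log axis) and by the percentage of all cDC1 peaks at least as high that overlap a cDC2 peak. The 3 filled points overlap a cDC2 peak themselves, while the Tlr3 and Tlr13 points at the right, where 37.3% and 36.6% of peaks as high overlap one, do not, and the dashed line marks the lowest wild-type value in the cDC2 list (12.6).

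Genes that act with Toll-like receptors were examined as a list of 42, made up of co-receptors, trafficking proteins, adaptors, kinases and ligases, transcription factors, inhibitors and the other receptors Tlr5 and Tlr8. In cDC1, 37 of the 42 had a peak by the same rule, against 51.3% of all genes, with 155 peak assignments in all, and the 5 without were Hsp90b1, Lamp5, Irak1, Ikbkg and Irf3. All 6 surface co-receptors and all 6 adaptors had a cDC1 peak, as did 15 of 17 genes grouped as kinases and ligases, a group that also holds Irak3. Tnfaip3, which encodes the NF-kB inhibitor A20, carried 19 peaks and Ly86, which encodes MD-1, carried 17. Their highest-scoring cDC1 peaks lay 47.1 kb and 14.2 kb outside the genes. The peak numbers of these genes did not account for the stretch of chromosome nearest to each. In cDC2, 13 of the 42 had a peak, against 9.53% of all genes. These were found at 4 of 6 co-receptors, 5 of 17 kinases and ligases and 0 of 6 adaptors. The trafficking proteins gave 1 of 5, the transcription factors 1 of 3, the inhibitors 1 of 3 and the other receptors 1 of 2. At the share of 9.53%, a count of 0 of 6 sets no group apart. With only peaks inside the gene or within 1 kb, 33 of the 42 had a cDC1 peak, against 43.4% of all genes. In cDC2 that count was 9 of the 42, against 6.14% of all genes. Myd88, the adaptor shared by most Toll-like receptors, had its highest-scoring cDC1 peak 1.15 kb outside the gene, with 3.71 normalised tags in knockout and 34.0 in wild type.

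The highest-scoring cDC1 peak of the list was that of Irf5, a transcription factor activated downstream of MyD88, 1.81 kb outside the gene at chr6:29524221-29524411. It held 9.48 normalised tags in knockout and 114.3 in wild type, a fold of 12.1 (95% interval 6.57 to 22.6). Cd36, a co-receptor of Tlr2 and Tlr6, was next of the 8 in wild-type signal, with 8.65 tags in knockout and 107.4 in wild type. Pik3ap1, the adaptor BCAP, held 7.01 in knockout and 83.0 in wild type, and Ly86 1.65 in knockout and 80.5 in wild type. Irak2, an IRAK family member of the MyD88 complex, held 3.71 in knockout and 74.4 in wild type. The highest-scoring peaks of Tab2 and Cd180, which binds MD-1, lay 65.2 kb and 26.6 kb outside their genes, with 2.06 and 0.824 tags in knockout and 50.9 and 53.7 in wild type.

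In cDC2 the highest-scoring peak of the list was that of Tnfaip3, 47.1 kb outside the gene at chr10:19062426-19062616, with 9.52 normalised tags in knockout and 69.1 in wild type, a fold of 7.26 (95% interval 3.25 to 23.0). At almost the same place in cDC1, chr10:19062427-19062617, the highest-scoring Tnfaip3 peak held 3.71 tags in knockout and 75.7 in wild type. Cd180 and Ly86 followed in cDC2 with 9.52 and 3.66 tags in knockout and 46.1 in wild type at both. Irak4, a kinase, Irak2 of the same family and Irak3, which encodes the pseudokinase IRAK-M, a negative regulator of Toll-like receptor signalling, were also listed. Irak2, Irak3 and Irak4 held 4.4, 2.93 and 2.93 tags in knockout and 37.7, 37.7 and 34.6 in wild type. Tlr5, the receptor for flagellin, had 2 cDC2 peaks, the higher-scoring with 7.33 tags in knockout and 38.7 in wild type, 26.2 kb outside the gene. Irf5 held 2.93 tags in knockout and 30.4 in wild type.

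**Figure D5:**
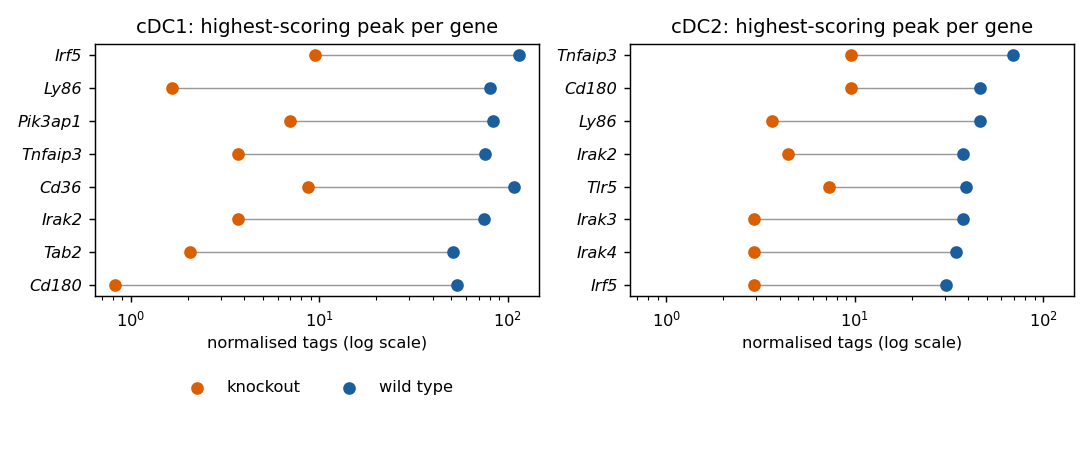
Knockout and wild-type normalised tags (log axis) of the highest-scoring peak of each of the 8 genes of the Toll-like receptor pathway list with the highest scores in cDC1 (left) and in cDC2 (right). Irf5 reaches 114.3 wild-type tags in cDC1, and Tnfaip3 reaches 69.1 in cDC2.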

How the data were processed

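Subset and genotype of each CUT&Tag library came from its title. Per the file headers, HOMER findPeaks called the peaks of each subset on 1 wild-type tag directory against 1 knockout tag directory; the headers do not say which libraries entered each. The limits were a false discovery rate of 0.001, a fold of at least 4 and a Poisson p of at most 0.0001. The submitters' processing notes name builds GRCm38 and mm10. An aligner was not given in the sources used here. Signal of a peak was deposited as wild-type tags scaled to 10000000. The deposited fold is a ratio of wild type over knockout, the deposited score is HOMER's own, the deposited p-value is over tags, and the deposited focus ratio, a fraction, was not used. Where a tag column had been scaled to the other genotype, tags were returned here to unscaled depth and the knockout totals derived from that scaling. Intervals are exact (Clopper-Pearson for folds, Poisson for tags), on tags rounded to whole numbers, and cover counting error only.

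Genes came from a RefSeq table of GRCm38.p6, and all 42 pathway genes matched by symbol. Python 3.11.15, pandas 2.3.3 and scipy 1.17.1 were used, and assignment and intervals were tested on simulated data. The lists hold no value per library, so no test between genotypes was made. Named genes were the 10 receptors and, per subset, the 8 pathway genes with the highest-scoring peaks; Alas1, Fam114a1, Myd88, Tlr8 and the 5 pathway genes without a cDC1 peak were named after their values were seen. Genes and lists were chosen with earlier results of these data known.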

Additional observations from a re-analysis of the deposited data

How the results depend on the processing

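The count of Toll-like receptor genes with a cDC1 peak stayed between 8 and 9 under every alternative run. The share of all genes with a peak moved between 35.1% and 51.6%. The runs kept only peaks within 10 kb or 50 kb, used another measure of distance to the nearest gene, or let all annotated genes compete. Others required a fold of at least 8, a score at or above the list's median, or a p of at most 1e-06. With a fold of at least 8 the count was 8 against 38.5% of all genes, and with peaks scoring at or above the median it was 9 against 35.1%. The 31 cDC1 peaks became 18 with a fold of at least 8. In cDC2 the 3 genes and 3 peaks became 1 and 1 with a fold of at least 8, when Tlr11 was left, and 1 and 1 with the higher-scoring peaks, when Tlr1 was left, while 5.01% and 5.24% of all genes kept a peak. When noncoding genes competed, 25 cDC1 peaks and 2 cDC2 peaks stayed, and the Tlr1 peak 40.4 kb below the gene went to Gm31889 in both subsets. With wild-type tags limited to the score, 26 folds ran between 3.44 and 28.8, and that of the highest Tlr13 peak left its interval. The pathway counts and the shared peaks stayed within 1.5 times. Leaving out each replicate was not run, because the lists hold no value per library. No paired analysis was possible because the columns carry no replicate numbers. The small tag counts in cDC2, 8 to 14.5 wild-type tags at these genes, limit what the cDC2 list can show.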
